A study of Mus musculus with 2 samples.

Results

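The regions described here are the ATAC-seq peaks at 8 genes of the Meis, Pbx and Pknox families: Meis1, Meis2, Meis3, Pbx2, Pbx3, Pbx4, Pknox1 and Pknox2. A region belonged to a gene when it lay inside the gene record of GENCODE mouse release 21 (build mm10) or within 100 kb of either end. Of 32388 regions of open chromatin in the study, 67 met this rule. ATAC-seq uses the tn5 transposase to cut and tag DNA that is not packed away, so a peak marks a stretch of accessible chromatin. The chromatin came from dissected cartilage of the proximal and the distal femoral growth plate of FVB/NJ mouse embryos at E15.5. The tissue held all chondrocyte zones and the perichondrium, and no allele or treatment differed between the ends. Cartilage ends freed of soft tissue were pooled by litter, with 8 animals on average, and 50000 cells entered a reaction. Each end was represented by 1 peak list that kept only the peaks reproducible between 2 biological replicates at an irreproducible discovery rate under 0.05. The lists held positions without a score or read count, so the depth behind a peak is unknown and no difference between the ends could be tested against replicate error.

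Meis, Pbx and Pknox proteins are homeodomain transcription factors of the TALE class, named after a loop of extra residues in the homeodomain. Meis and Pknox proteins bind Pbx proteins, and the resulting pairs bind DNA together with Hox proteins. In the limb bud, some Meis proteins mark the proximal segment, where retinoic acid induces them, and Pbx proteins are needed for the pelvis and proximal limb to form.

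The proximal list held 28257 peaks and the distal list 27958, with median widths of 711 and 691 bp, on the 19 autosomes. Peaks of the lists that shared at least 1 bp were merged into a region. Across the study 73% of merged regions had a peak in both lists, 14.1% had a proximal peak only and 12.9% a distal peak only. Regions with a peak in a single list are called single-end regions below. Promoter peaks, those within 1 kb of a start site, were in neither list at 40.9% of 20807 autosomal protein-coding genes. They were present at 9 of 10 chondrocyte marker genes fixed for this check, including Col2a1, Acan and Sox9. Such peaks were present at 0 of 5 perichondrium and osteoblast markers, 0 of 5 muscle markers and 0 of 3 blood markers. They were present at 2 of 4 endothelial markers, and at 1 of 4 markers each of epithelium and of neurons. Perichondrium was part of the dissected tissue, so the 0 of 5 does not show that it was absent. Of all markers read, Sox5 had its promoter peak in the proximal list only, and Tek and Krt8 had theirs in the distal list only. Over all genes these states were found in 1.37% and 2.77%. With 3 to 10 genes per marker list, the counts are coarse.

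The sequences below belong to regions on which the differences between the femur ends turned, and they are given 5′ to 3′ on the strand of the named gene in mm10. Capitals mark matches, on either strand, to short motifs that are spelled out with their shares further on. The first pair comes from the Meis3 and Pbx2 promoters, where a peak was listed for the proximal femur alone. The Meis3 stretch (chr7:16174993-16175089, plus strand) is the part of the peak before the first annotated start. The Pbx2 stretch (chr17:34592009-34592262, plus strand) is the part of the RefSeq promoter (GRCm38.p6) that ends before an internal start of a coding transcript, and it lies inside the gene record, whose first start is at position 34591266.
Meis3 promoter, proximal list only: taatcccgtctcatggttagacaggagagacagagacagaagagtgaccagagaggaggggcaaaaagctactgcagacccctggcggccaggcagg
Pbx2 promoter, proximal list only: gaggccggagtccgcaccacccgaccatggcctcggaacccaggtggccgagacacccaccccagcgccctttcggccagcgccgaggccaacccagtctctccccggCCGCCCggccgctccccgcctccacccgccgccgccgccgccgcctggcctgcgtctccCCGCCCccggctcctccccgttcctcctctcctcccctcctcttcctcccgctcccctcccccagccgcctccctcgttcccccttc
The next sequence is the central 200 bp of a proximal-only region inside Meis2, at chr2:115979925-115980124, on the minus strand.
Meis2 intron, proximal list only, 85.8 kb into the gene: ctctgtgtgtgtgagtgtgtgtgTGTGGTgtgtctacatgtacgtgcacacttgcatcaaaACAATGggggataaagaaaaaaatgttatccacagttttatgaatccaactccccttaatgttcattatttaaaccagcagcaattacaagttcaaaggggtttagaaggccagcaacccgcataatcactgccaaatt
The last set holds the central 200 bp of distal-only regions inside Meis1 (chr11:18958408-18958607) and Pknox2 (chr9:37054188-37054387, chr9:37114465-37114664 and chr9:37139578-37139777), all on the minus strand.
Meis1 intron, distal list only: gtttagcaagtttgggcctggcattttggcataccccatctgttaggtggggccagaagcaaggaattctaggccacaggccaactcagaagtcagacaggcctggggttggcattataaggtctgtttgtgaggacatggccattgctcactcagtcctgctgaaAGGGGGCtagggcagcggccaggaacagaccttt
Pknox2 intron 2, distal list only: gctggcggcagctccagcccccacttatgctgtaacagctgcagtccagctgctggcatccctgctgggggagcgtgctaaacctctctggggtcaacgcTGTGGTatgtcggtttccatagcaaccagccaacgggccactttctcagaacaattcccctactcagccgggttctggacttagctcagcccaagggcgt
Pknox2 intron 1, distal list only, 32.8 kb into the gene: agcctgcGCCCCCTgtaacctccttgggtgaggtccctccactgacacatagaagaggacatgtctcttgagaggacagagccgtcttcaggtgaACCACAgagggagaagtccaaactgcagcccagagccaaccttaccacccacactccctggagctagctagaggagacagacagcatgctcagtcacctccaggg
Pknox2 intron 1, distal list only, 7.7 kb into the gene: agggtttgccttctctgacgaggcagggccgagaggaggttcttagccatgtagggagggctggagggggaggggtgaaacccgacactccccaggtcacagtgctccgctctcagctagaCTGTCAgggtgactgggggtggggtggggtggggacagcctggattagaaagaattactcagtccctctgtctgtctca
The Meis2 sequence held a SOX motif and a RUNX motif. TGACAG, the core that Meis and Pknox proteins are known to bind, was present among the sequences shown in the Pknox2 region 7.7 kb into the gene, where it is printed on the opposite strand as CTGTCA.

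Single-end regions at the 8 genes did not favour the proximal list by number. Of the 67 regions, 49 (73.1%) had a peak in both lists, 9 were proximal-only and 9 were distal-only. The proximal share of single-end regions was therefore 50% (9 of 18, exact Clopper-Pearson 95% interval 26 to 74%), against 52.1% over all single-end regions of the study. The interval covers counting error only and holds the share of the whole study, so a difference from it was not detectable with this number of regions. Proximal-only regions made up 13.4% of the 67 (interval 6.33 to 24%), beside 14.1% of all regions, and distal-only regions likewise made up 13.4%, beside 12.9%. All genes but Pbx3 had at least 1 single-end region within 100 kb, which was also true of 60.8% of all protein-coding genes. Meis2, Meis3 and Pbx4 had more proximal-only regions, Meis1, Pbx2 and Pknox2 had more distal-only regions, and Pknox1 had 1 of each. The split thus differed from gene to gene within each of the Meis and Pbx families.

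**Figure D1:**
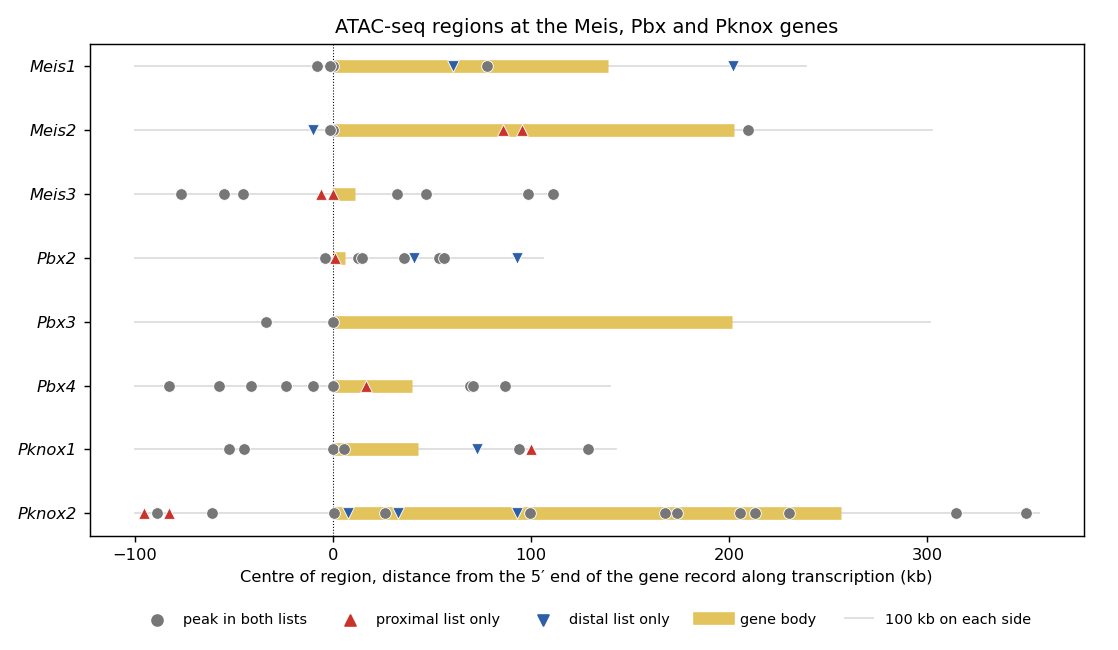
Map of the 67 merged regions at the 8 genes. The x axis gives the distance in kb of a region's centre from the 5′ end of the gene record along transcription, grey circles are regions with a peak in both lists, red triangles proximal-only and blue triangles distal-only regions, and the yellow bar is the gene. Proximal-only regions lie inside Meis2 and Pbx4 and at the starts of Meis3 and Pbx2, while the distal-only regions inside genes are in Meis1 and Pknox2.

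Each of the 8 genes had a promoter peak in at least 1 list, and at 2 of them the lists differed. Meis1, Meis2, Pbx3, Pbx4, Pknox1 and Pknox2 had a promoter peak in both lists, as did 55% of 20807 autosomal protein-coding genes. Meis3 and Pbx2 had a promoter peak in the proximal list only, a state found in 1.37% of genes. None of the 8 genes had one in the distal list only or lacked one in both lists, beside 2.77% and 40.9% of genes. These are 2 genes of 8 in lists without scores, so a distal signal just below the threshold of the peak caller cannot be told apart from none. Both promoter peaks were narrow. With peaks narrower than their list's median left out, Meis3, Pbx2 and also Meis1 had no promoter peak in any list.

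The widths show how close these calls lay to the lower end of promoter peaks. The widest promoter peak measured 585 bp at Meis3 and 643 bp at Pbx2, which was wider than the proximal promoter peak of 7.3% and 11.4% of genes respectively. The widest proximal promoter peak measured 585 to 643 bp at 489 genes, a group that includes Meis3 and Pbx2, whose widths set the range. Of these 489 genes, 3.68% had no distal promoter peak, compared with 2.44% of all genes with a proximal promoter peak. The 286 genes with a promoter peak in the proximal list only had a median width of 590 bp there, close to the width at Meis3 and below that at Pbx2. The other promoters spread widely. Meis1 (612 bp proximal, 532 bp distal) and Meis2 were also narrow. At Meis2 the region over the first start measured 577 bp in the proximal list and 452 bp in the distal list. Its widest distal promoter peak, 691 bp, belonged to a second region upstream, whose proximal peak of 641 bp fell outside the 1 kb limit. Pbx4 (810 and 811 bp) was intermediate. Pbx3 (1089 and 956 bp), Pknox1 (1290 and 1256 bp) and Pknox2 (1209 and 1275 bp) were broader than the median of 970 and 948 bp over genes.

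Among the Meis genes, 21 regions were found, of which 14 were shared, 4 proximal-only and 3 distal-only. Meis1 (chr11:18879817-19018985, minus strand) had 6 regions, of which 4 were shared and 2 distal-only. Of the shared ones, 1 covered the promoter, 2 lay upstream at 1281 and 7548 bp from the nearest start, and 1 was in intron 8 of 11, numbered in the transcript with the longest coding sequence. The distal-only regions were a 449 bp peak in intron 7, whose nearest proximal peak was 16869 bp away, and a 395 bp peak downstream of the gene, 103495 bp from the nearest proximal peak. No other protein-coding gene lay in the Meis1 window, and all 6 regions had Meis1 as the nearest protein-coding start.

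Meis2 (chr2:115863064-116065839, minus strand), a close paralog of Meis1, also had 6 regions, with a different split within the gene that rests on few peaks. Of all intronic regions in the study, 21.4% were proximal-only and 17.9% distal-only. Both regions inside Meis2 beyond the promoter were proximal-only and lay in intron 8 of 11. The region whose sequence is shown was 554 bp wide, and the nearest distal peak was 85249 bp away. The only distal-only region was a 754 bp peak upstream of the gene, at the start of a record whose coding status GENCODE leaves to be tested, with the nearest proximal peak 8034 bp away. The shared regions were a pair at the promoter and a 437 bp region downstream, in which the proximal peak was the narrower by 0.60 on the log2 scale. That downstream region had the lowest width ratio among the 49 shared regions.

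Meis3 (chr7:16175090-16186504, plus strand) is a short gene of 11.4 kb in a window with 9 other protein-coding genes. Of its 9 regions, 7 were shared, and all of those lay at or in neighbouring genes. Both regions closest to Meis3 itself were proximal-only. The promoter peak of 585 bp covered 5 of the 8 annotated start sites, and its nearest distal peak was 31629 bp away. A peak of 528 bp lay upstream, 5801 bp from the nearest Meis3 start, with its nearest distal peak 37917 bp away. The distal list thus held no peak at Meis3 beyond those of its neighbours.

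Among the Pbx genes, whose products are the shared partners of Meis, Pknox and Hox proteins, 17 of 21 regions were shared, 2 were proximal-only and 2 distal-only. Pbx2 (chr17:34591266-34597400, plus strand) lies in a window with 12 other protein-coding genes and had 9 regions. Its promoter peak (chr17:34591946-34592588) was proximal-only, with a start site of a coding transcript inside it and the nearest distal peak 4086 bp away. It was the only region in the window that had Pbx2 as its nearest protein-coding start. The distal-only regions were 36782 and 88578 bp from any Pbx2 start. The nearer was a 547 bp peak within 1 kb of the start of Prrt1, and the other was an 844 bp peak inside another gene.

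Pbx3 (chr2:34171457-34373142, minus strand) was the poorest in open chromatin. It is 202 kb long, yet it had 2 regions in its whole window, both shared, and the number of regions was lower in only 14.7% of genes. They were its own promoter and the promoter of a neighbour, and no region of either list lay inside Pbx3 beyond its promoter. Pbx4 (chr8:69832491-69872292, plus strand) had 10 regions in a window with 11 other protein-coding genes, of which 9 were shared. Its main promoter peak was shared, with nearly equal widths of 810 and 811 bp. The single-end region at Pbx4 was a 518 bp proximal-only peak in intron 1, which counted as a promoter region because the start of a noncoding transcript of the gene lay 851 bp away.

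Among the Pknox genes, which encode TALE proteins related to Meis and are also called Prep genes, 18 of 25 regions were shared, 3 were proximal-only and 4 distal-only. Pknox1 (chr17:31564734-31607693, plus strand) had 8 regions. Its promoter and a 288 bp region in intron 1 were shared. Its single-end regions both lay far from the gene. They were a 718 bp distal-only peak at the start of Cbs, which encodes an enzyme of cysteine synthesis, and a 307 bp proximal-only peak 62073 bp from any Pknox1 start. The latter was the narrowest single-end region of the 18.

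Pknox2 (chr9:36890982-37147407, minus strand) had the most regions of the 8 genes, 17 in all, which exceeded the number in 99.1% of protein-coding genes of any length. It is also the longest of the 8 genes, so its window was the widest. Per 100 kb of window it held 3.72 regions, fewer than Meis3 (4.26), Pbx2 (4.37) and Pbx4 (4.17). The median over protein-coding genes was 2. Inside the gene beyond its promoter lay 10 regions, all in introns, of which 7 were shared and 3 distal-only. Among 869 genes of 139 to 256 kb, the range of the long members, 0.575% held 10 or more such regions and the median was 2. Meis1 and Meis2 held 2 each and Pbx3 held 0, as did 23.6% of genes of that length. The distal-only regions inside Pknox2 were 394, 502 and 560 bp wide and stood 6107, 5781 and 6434 bp from the nearest proximal peak. Both proximal-only regions in its window, 419 and 548 bp wide, lay upstream inside another gene, 82463 and 94876 bp from the nearest Pknox2 start. The genes whose windows were most like that of Pknox2 in numbers of shared, proximal-only and distal-only regions, out of 20741 compared, were Prune2 (12, 1 and 3), Rin2 (12, 1 and 3) and Mob3b (12, 2 and 2), against 12, 2 and 3 at Pknox2.

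**Figure D2:**
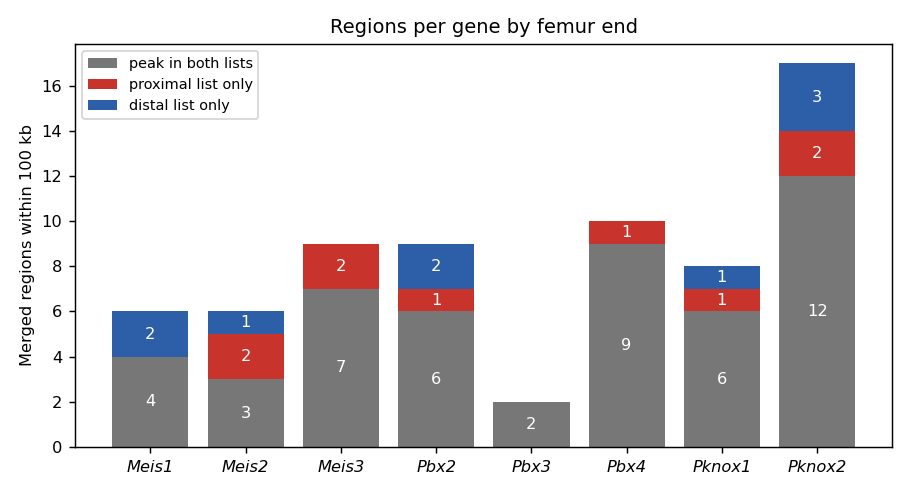
Merged regions within 100 kb of each gene, by state. The y axis counts regions, grey stands for a peak in both lists, red for the proximal list only and blue for the distal list only, and the numbers inside the bars are counts. Counts run from 2 at Pbx3 to 17 at Pknox2, and single-end regions number 0 to 5 per gene.

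By position, the regions fell into 10 at the members' own promoters, 14 elsewhere inside a member, 31 at start sites of other genes, 5 inside other genes and 7 between genes. The 3 single-end regions at own promoters (Meis3, Pbx2 and the internal start of Pbx4) were all proximal-only, whereas the 4 at start sites of other genes were all distal-only. Over the whole study, 39.8% of single-end promoter regions were proximal-only. Inside the members the split was 2 proximal-only, both in Meis2, and 3 distal-only, 1 in Meis1 and 2 in Pknox2. The remaining distal-only region inside Pknox2 was counted with the start sites of other genes, because another record, of unsettled coding status, starts there.

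Set beside regions of the same kind, the numbers stayed small. Promoter regions of any gene made up 61.2% of the 67 regions, against 42.5% of all regions, and intergenic ones 10.4% against 28.4%. Of the 41 promoter regions, 7.32% were proximal-only and 9.76% distal-only, against 4.85% and 7.34% of all promoter regions. Of the 18 intronic regions, 16.7% were proximal-only and 22.2% distal-only, against 21.4% and 17.9% of all intronic regions. The 7 intergenic regions were proximal-only in 28.6% and distal-only in 14.3%, against 21% and 16.1% of all intergenic regions. Of the 30 regions whose nearest protein-coding start was that of a member, 18 were shared, 6 proximal-only and 6 distal-only.

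Where both lists had a peak, its width was much the same at either end. The log2 ratio of proximal to distal width had a median of 0.02 over the 49 shared regions, with a range of -0.60 to 0.63, against a median of 0.03 over all shared regions. The proximal peak was the wider in 27 of them (55.1%), against 57.1% of all shared regions, and the distal in 22. Inside the members, 7 of 9 shared regions were wider in the proximal list, with a median of 0.11. Of these 9 regions 7 lay in Pknox2, so the values mostly describe that gene. The highest ratio of 0.63 was at a region in intron 1 of Pknox2. At the members' own promoters the median was 0.04. Single-end regions were narrower than shared ones, with median widths of 548 bp for the proximal-only and 547 bp for the distal-only regions, compared with 829 and 800 bp for the proximal and distal peaks of shared regions. The same was true of the whole study, in which single-end regions had medians of 510 and 497 bp. Width was the only measure of size in the lists, and its part in which peaks were called at a single end was not tested.

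**Figure D3:**
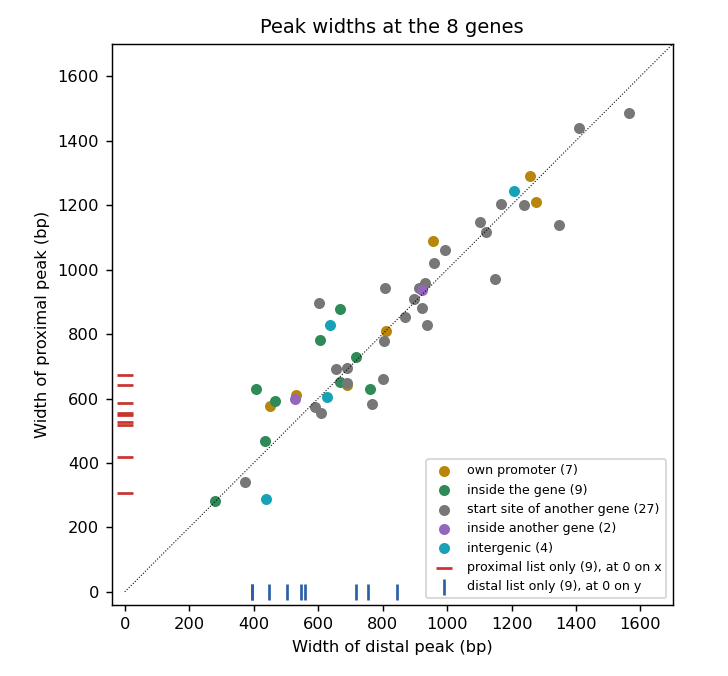
Widths in bp of the distal peak (x axis) and the proximal peak (y axis) in each region at the 8 genes. Points are the 49 shared regions coloured by position, the dotted line marks equal widths, and the 9 proximal-only and 9 distal-only regions are drawn as ticks on the axes. Shared regions lie along the line of equal widths, and no single-end region is wider than 844 bp.

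Motifs were searched as plain letters on both strands in the central 200 bp of each region, where N stands for any base. A match is a string of letters and says nothing of binding. TGACAG, the Meis and Pknox core, was present in 6 of the 67 regions (8.96%, interval 3.36 to 18.5%), against 12.4% of all regions. The composite TGATNGACA of a Pbx and a Meis or Pknox half-site, which overlaps TGACAG where N is T, was in 0 of 67 regions, which allows a share of up to 5.36%, against 0.367% of all regions. TGATNNAT, the composite of Pbx with Hox, was in 3 regions (4.48%) against 7.06%. TTTATNG, bound by posterior Hox proteins, was in 2 (2.99%) against 6.12%. For each of these motifs the interval at the 8 genes held the share of all regions.

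The other motifs searched were those of AP-1, RUNX, SOX, ETS, SP and KLF factors and of CTCF. The AP-1 motif TGANTCA was in 10 regions (14.9%, interval 7.4 to 25.7%) against 23.9% of all regions. The RUNX motif TGTGGT was in 11 (16.4%) against 13.7%, and the SOX motif CATTGT in 3 (4.48%) against 4.83%. The ETS motif CCGGAA was in 10 (14.9%) against 9.12%, the SP and KLF motif GGGCGG in 22 (32.8%) against 25.8%, and AGGGGGC, a part of the CTCF motif, in 7 (10.4%) against 6.8%. GGGCGG and CCGGAA were frequent at promoters in general, with 50.1% and 16.8% of all promoter regions. TGACAG was in 0 of the 10 own promoter regions, against 9.95% of all promoter regions, and in 1 of the 9 proximal-only and 1 of the 9 distal-only regions.

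**Figure D4:**
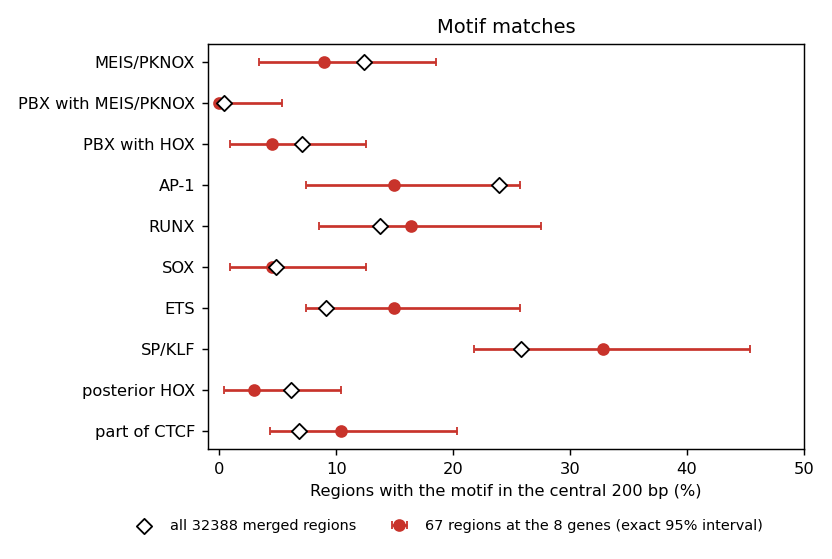
Share of regions with each motif in the central 200 bp. The x axis gives the share in percent, red points with bars are the 67 regions at the 8 genes with their exact 95% intervals, and open diamonds are all 32388 merged regions. Every diamond falls inside the interval of the 8 genes.

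The RefSeq promoter table, which gives 250 bases before and 50 after a start, held Meis1, Meis2, Meis3, Pbx2 and Pbx4 and did not list Pbx3, Pknox1 or Pknox2. All 300 bases lay in a proximal peak at Meis3 and Pbx2 and 0 in a distal peak, whereas at Meis1 and Pbx4 all 300 lay in both. At Meis2 the listed promoter was that of an internal start and 0 bases lay in a peak. The Pbx2 promoter held GGGCGG at 2 places (on the opposite strand in the sequence above), a motif found in 35.7% of RefSeq promoters. It had a GC content of 76%, against 66.7% at Meis3. TGACAG was in none of the 5 promoters, and in 19.2% of all RefSeq promoters.

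Other genes of the same pathways were read in the same way. Of 9 other TALE homeodomain genes, 4 had a promoter peak in both lists, Irx5 and Mkx had one in the proximal list only, Tgif2 had one in the distal list only and 2 had none. Mkx encodes a regulator of tendon, Irx5 an Iroquois factor and Tgif2 a repressor. Single-end regions around these genes numbered 5 proximal-only and 5 distal-only, a proximal share of 50% against 52.1% over all single-end regions. A further list held 18 limb genes: Hox genes of groups 9 and 10, limb regulators and genes of retinoic acid signalling. Of these, 8 had a promoter peak in both lists and 7 in none. Hoxa10 and Pitx1, a Hox gene of the upper leg and a hindlimb identity factor, had a promoter peak in the proximal list only. Emx2, needed for the shoulder blade, had one in the distal list only. Over all protein-coding genes, 55% had a promoter peak in both lists and 40.9% in none. A promoter peak was in the proximal list only at 1.37% of them and in the distal list only at 2.77%. Around the 18 genes 8 regions were proximal-only and 15 distal-only, and neighbouring Hox genes share some of these regions. The proximal share was 34.8% (interval 16.4 to 57.3%), and the interval held the 52.1% of all single-end regions.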

How the data were processed

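Open chromatin was measured by ATAC-seq in the proximal and the distal femur, with 1 peak list per end. Reads were mapped by the authors to mm10 (Bowtie2 2.2.8), duplicates were removed and peaks were called with MACS2 (version 2.1.1 in the submitters' processing notes; the methods name another release). They kept peaks reproducible between 2 biological replicates at an irreproducible discovery rate under 0.05. The deposited lists hold the chromosome, start and end of each peak, and no score, p-value or read count, so the depth behind each peak is unknown and no value carries a replicate error. The study's methods give read totals for the libraries, which were not used here. A list reports only peaks past the threshold, and a region missing from a list may hold signal below it.

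Positions were written 1-based. Peaks sharing at least 1 bp were merged with Python 3.11.15 and NumPy 2.4.6, and regions were assigned with GENCODE mouse release 21: within 100 kb of a gene record, and as promoter within 1 kb of any transcript start. Genes on X and Y, where the lists hold 0 peaks, were left out of the backgrounds. A region within 100 kb of several genes counts for each gene and once in a list's total. Percentages of regions carry exact Clopper-Pearson 95% intervals (SciPy 1.17.1), which cover counting error only, and neighbouring regions are not independent. No test was run, since each end has a single list. Sequences were read from GRCm38 (that of 1 region is not reported here) and 5 of the 8 promoters from RefSeq. The merging and motif search were tested on simulated peaks and sequences. Genes were named by rule: the 8 members, protein-coding genes starting within 1 kb of a single-end region, the 3 genes most like the member with most regions, and listed genes with a single-end promoter; Col2a1, Acan and Sox9 were named as examples after their values were seen. The members and gene lists were chosen with earlier results of these data known.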

Additional observations from a re-analysis of the deposited data

How the results depend on the processing

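No paired analysis was possible because each list joins the replicates of its femur end, and for the same reason no replicate could be left out. Of 75 values recomputed under other settings, 69 stayed within the limits set for them and 6 moved. The tally is a weak check of robustness. Many of the values came from leaving out a single gene, which kept most regions. No region at the 8 genes held several peaks of a list. Settings that differed only for such regions had to repeat the main values. With narrow peaks left out, a proximal share of 33.3% (4 of 12) counted as unmoved, since it lay inside the main interval of 26 to 74%. With peaks narrower than their list's median left out, 25 regions at the 8 genes were shared, 4 were proximal-only and 8 distal-only. The promoter calls at Meis1, Meis3 and Pbx2 were lost. Meis2 kept a promoter peak in the distal list only, the 691 bp peak of its second promoter region. With windows of 10 kb, 23 regions were shared and 5 were distal-only, and with regions assigned by the nearest protein-coding start, in windows wider than 100 kb, 23 were shared. With the whole region searched, TGACAG was in 43.3% of regions at the 8 genes and 39.6% of all regions. The proximal share of single-end regions ranged from 43.8 to 56.2% when each gene was left out in turn and from 33.3 to 54.5% under the other settings. The promoter states of the 8 genes were the same with promoters of 3 kb, with peaks on the start itself, with coding transcripts only and with the first base of the gene record. The unknown read depth behind each peak limits any statement that a peak is absent at an end.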
